A study of Mus musculus with 7 samples.

Results

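The D cyclins, the kinases they activate and the inhibitors that hold those kinases back were examined in splenic B cells of mice that overexpress miR-155. The 9 genes were Ccnd1, Ccnd2, Ccnd3, Cdk4, Cdk6, Cdkn1a, Cdkn1b, Cdkn2c and Cdkn2d, out of 18193 genes that a probe set of the array names alone. They were followed through every probe set whose platform annotation gives that gene and no other, 25 probe sets in all. The transgenic (TG) group comprised 3 arrays of spleen B cells from Eµ-miR-155 mice, in which an immunoglobulin heavy chain enhancer (Eµ) drives miR-155 in the B lineage, and the wild-type (WT) group comprised 4 arrays of spleen B cells without the transgene. Mice of both groups were of the FVB strain, their B cells were isolated with a magnetic kit, and each array is taken as 1 mouse, which the labels do not state. The labels give neither age nor sex and do not say whether the transgenic mice came from several founders. The values are on a log2 scale, so a difference of 1 is a doubling, and a probe set counts as above background where it exceeds 4. The small RNA made by the transgene is shown because it is what separates the groups, with its seed (bases 2 to 8) in capitals, from RefSeq on GRCm38.p6, chr16:84714143-84714165, plus strand.
mmu-miR-155-5p: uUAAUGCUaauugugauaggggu

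Cyclins D1, D2 and D3 are made in response to mitogens and pair with CDK4 or CDK6, and these complexes phosphorylate the retinoblastoma protein so that E2F factors can switch on genes of DNA synthesis. Inhibitors of the INK4 family, among them p18 (Cdkn2c) and p19 (Cdkn2d), bind CDK4 and CDK6 alone and keep the cyclin away, whereas p21 (Cdkn1a) and p27 (Cdkn1b) bind cyclin and kinase together and act mainly on CDK2. Resting B cells are known for high p27 and for cyclins D2 and D3, and cyclin D1 is the D cyclin that mature lymphocytes normally make little of.

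Between 46.0% and 47.9% of the probe sets were above 4 on each array. With 3 and 4 arrays the precision is limited by their number. The 9 tested B cell markers had a mean of 13.37, 13.36 and 12.87 on TG replicates 1, 2 and 3, against 13.53, 13.50, 13.61 and 13.55 on WT replicates 1 to 4. Xist, an RNA of female cells, was at 13.74, 13.73 and 13.93 on the TG arrays and at 13.79, 13.61, 2.22 and 2.81 on WT replicates 1 to 4 with its brightest probe set, so by this gene WT replicates 3 and 4 were male and all other arrays female. Each member's difference is therefore also given against WT replicates 1 and 2 alone.

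Among the 9 genes, Ccnd3, Cdk4, Cdk6 and Cdkn2c were higher in RNA of the TG isolates and Cdkn1b was lower, by the probe set of highest mean for each gene. Markers of other cells in these isolates are given below. Ccnd1 had the largest difference of the 8 tested genes and did not pass with that probe set, Ccnd2 and Cdkn2d did not pass, and Cdkn1a was not above background on any array. Each gene was tested with limma, adjusted over all 20994 probe sets that were above 4 on at least 3 arrays, at an adjusted p under 0.05. So 4 of the 8 tested genes were called higher, where 8.11% of all 9517 tested genes were, and 1 was called lower, where 2.56% were. The genes were chosen with earlier results of these data known, so this contrast and those below describe an excess and do not test it. All TG arrays lay above all WT arrays for 5 of the 8 genes, against 19.5% of all tested genes, and below them for 1 gene, against 10.4%. The median change of the 8 genes was 0.88, beside 0.0022 over all tested genes. Of the 25 probe sets 22 passed the filter, 7 of these were higher and 1 lower, where 5.63% and 3.65% of all tested probe sets were, and 11 had all TG arrays above all WT arrays and 1 below, where 14.2% and 13.3% did.

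**Figure D1:**
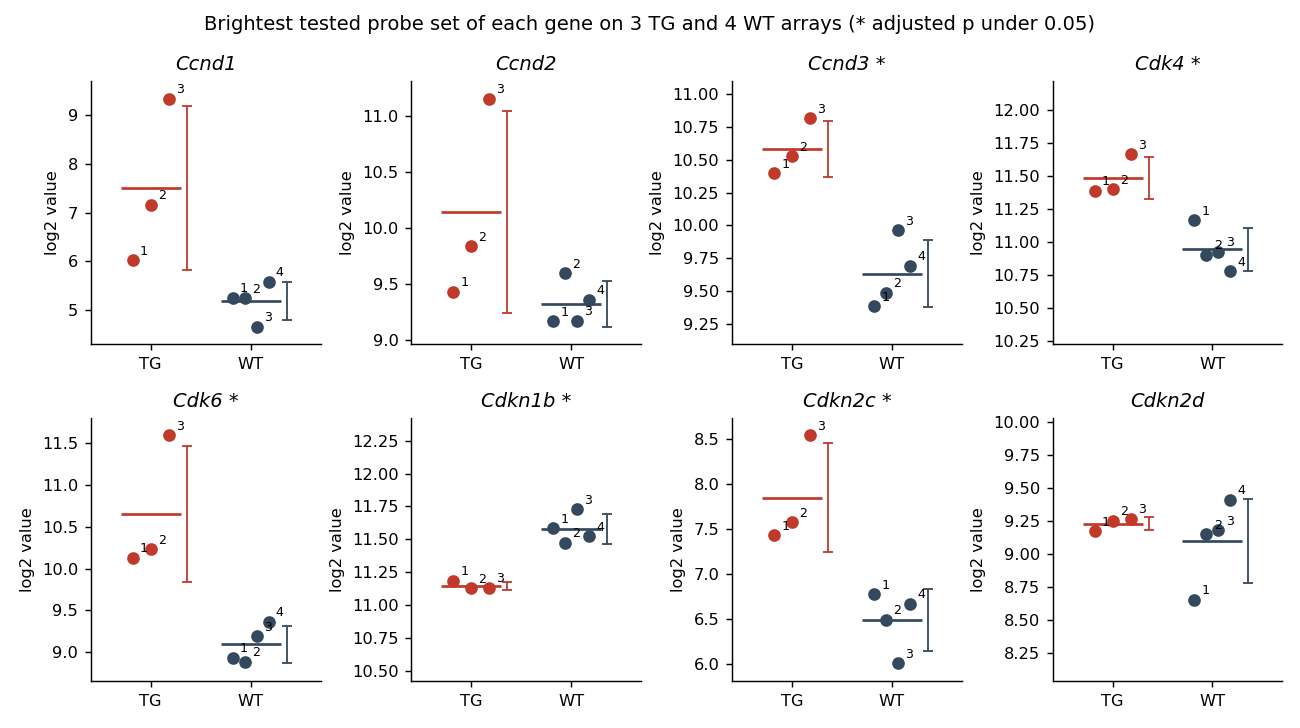
Log2 value of the brightest tested probe set of each gene on each array (points, numbered by replicate), with TG left and WT right, the group mean (line) and SD (bar); the vertical scales differ between panels and an asterisk marks an adjusted p under 0.05. For Ccnd1, Ccnd2 and Cdk6, TG replicate 3 stands far above TG replicates 1 and 2, while for Cdkn1b the 3 TG arrays lie between 11.13 and 11.18.

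Ccnd1, which encodes cyclin D1, was higher on every TG array than on any WT array with each of its 3 probe sets, and TG replicate 3 was the highest. Its brightest probe set (1417420_at) was at 6.02, 7.16 and 9.34 on TG replicates 1 to 3, against 5.25, 5.24, 4.66 and 5.58 on WT replicates 1 to 4. The difference was 2.32 ± 0.73 (SE), with a 95% interval from 0.57 to 4.08, and did not pass (limma adjusted p = 0.0959). The second probe set (1448698_at) had 5.13, 5.99 and 8.44 in TG, against 3.29, 2.83, 2.76 and 3.20 in WT. It was not above background on any WT array, so the fold has only a lower bound, and Ccnd1 was at least 5.73-fold higher in TG by this probe set (limma adjusted p = 0.0372). This probe set passed the filter through the TG arrays alone, and with values under 4 set at 4 it did not pass (adjusted p = 0.0770). The third (1417419_at) had 4.81, 4.88 and 6.96 in TG, against 4.14, 4.17, 4.17 and 4.19 in WT, a difference of 1.38 ± 0.51 (SE, adjusted p = 0.135). Its WT values lay just above 4 with an SD of 0.02 (n = 4), 2 of them identical, and so carry little about low levels. A small p of this probe set is to be read with that narrow WT spread.

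How far Ccnd1 differed depended on single arrays. Without TG replicate 3 the difference of the brightest probe set was 1.41 (limma adjusted p = 0.0884), without TG replicate 1 it was 3.07 and passed (adjusted p = 0.0407), and without TG replicate 3 the third probe set passed at 0.68 (adjusted p = 0.00445). The call of the second probe set was lost without TG replicate 2 (adjusted p = 0.100) or without WT replicate 1, 2, 3 or 4 (0.0812, 0.101, 0.0932 and 0.0863). Against WT replicates 1 and 2 alone the brightest probe set gave 2.26 (adjusted p = 0.313), and the second no longer passed (adjusted p = 0.202).

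Ccnd2, encoding the cyclin D2 that B cells induce on antigen receptor signalling, was highest on TG replicate 3, and TG replicates 1 and 2 lay within or just above the WT range. Its brightest probe set (1434745_at) was at 9.43, 9.84 and 11.15 on TG replicates 1 to 3, against 9.17, 9.60, 9.17 and 9.36 on WT replicates 1 to 4. TG replicate 1 lay below WT replicate 2, so the groups overlapped. The difference was 0.82 ± 0.39 (SE; 95% interval from -0.12 to 1.75) and did not pass (limma adjusted p = 0.215). Without TG replicate 3 it was 0.31 (adjusted p = 0.310), and against WT replicates 1 and 2 alone 0.76 (adjusted p = 0.481). All 7 probe sets of Ccnd2 had a positive difference, from 0.45 to 0.83, and none passed in limma, where the unadjusted p ran from 0.0780 to 0.153; all 7 were highest on TG replicate 3. Of the dim ones 2, 1416123_at and 1416124_at, held an identical value on 4 of the 7 arrays, 4.94 and 5.19, and so carry little about low levels.

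Ccnd3, encoding the cyclin D3 on which B cell precursors and germinal centre B cells depend in mice, was called higher in TG with its brightest probe set alone. That probe set (1415907_at) was at 10.40, 10.53 and 10.82 on TG replicates 1 to 3, against 9.39, 9.49, 9.97 and 9.69 on WT replicates 1 to 4. The groups did not overlap, and the TG arrays were close to each other. The rise was 0.95 ± 0.16 (SE), or 1.93-fold (limma adjusted p = 0.0248). Against WT replicates 1 and 2 alone it was 1.14 (adjusted p = 0.109). The call was also lost without TG replicate 2 (adjusted p = 0.0922) or WT replicate 1, 2 or 4 (0.0567, 0.0766 and 0.0631), with changes between 0.83 and 1.06 over all left-out arrays. The second probe set (1438805_at) had 8.32, 8.08 and 8.77 in TG, against 8.53, 8.02, 9.06 and 8.33 in WT, a difference of -0.09 ± 0.27 (SE, adjusted p = 0.836), and its sign turned without TG replicate 2 (0.06), without WT replicate 3 (0.10) and against WT replicates 1 and 2 alone (0.12). The dimmest (1444323_at) differed by 0.38 ± 0.20 (SE, adjusted p = 0.241). The changes of 2 probe sets of a gene were compared by a two-sided exact permutation test over the 35 splits of the arrays. Those of the first and second probe sets differed by 1.04 (exact permutation p = 0.0286, the smallest it can give), which did not pass over the 32 pairs compared for all members (adjusted p = 0.305). A pair could pass this adjustment only if many pairs gave the smallest p, and 3 did. The adjusted test therefore could hardly pass and does not show that the 2 probe sets agree. The call of Ccnd3 rests on 1 of 3 probe sets. Which transcripts each probe set reads was not examined.

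**Figure D2:**
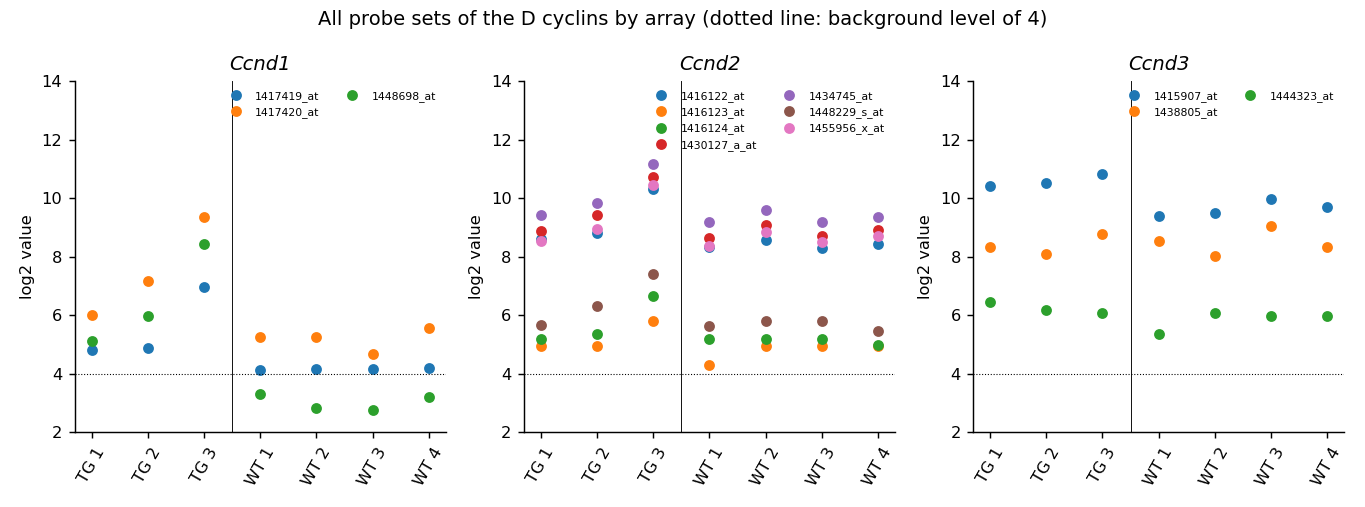
Log2 value (vertical axis) of every probe set of Ccnd1, Ccnd2 and Ccnd3 on each array, with TG arrays left of the vertical line and WT arrays right; the dotted line is the background level of 4. The 3 probe sets of Ccnd1 and all 7 of Ccnd2 are highest on TG replicate 3, and those of Ccnd3 do not share an order.

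Cdk4, the partner kinase of the D cyclins in most cells, rose by a small amount that all of its probe sets shared. The brightest (1422441_x_at) was at 11.39, 11.40 and 11.67 on TG replicates 1 to 3, against 11.17, 10.90, 10.93 and 10.78 on WT replicates 1 to 4. Every TG array was above every WT array, and the same held for the other probe sets. The rise was 0.54 ± 0.11 (SE), or 1.46-fold (limma adjusted p = 0.0354), and 0.59 ± 0.09 and 0.52 ± 0.12 (SE) on 1422440_at and 1422439_a_at (adjusted p = 0.0201 and 0.0462). A name ending in _x_at marks probes that can pair with other transcripts, which 1422440_at does not carry. Against WT replicates 1 and 2 alone the brightest gave 0.45 (adjusted p = 0.195). Its call was lost without TG replicate 2 or 3 (adjusted p = 0.0967 and 0.0670) or WT replicate 2, 3 or 4 (0.0980, 0.0883 and 0.0809), with changes from 0.45 to 0.62.

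Cdk6, the partner kinase that blood cells use most, had the largest rise among the kinases and was highest on TG replicate 3. Its brightest probe set (1435338_at) was at 10.13, 10.23 and 11.60 on TG replicates 1 to 3, against 8.93, 8.88, 9.19 and 9.36 on WT replicates 1 to 4. TG replicates 1 and 2 were themselves above all WT arrays. The rise was 1.56 ± 0.36 (SE), or 2.95-fold (limma adjusted p = 0.0469), and without TG replicate 3 it was 1.09 and still passed (adjusted p = 0.0196). Against WT replicates 1 and 2 alone it was 1.75 (adjusted p = 0.190). The call was lost without TG replicate 2 (adjusted p = 0.0990) and without WT replicate 1, 2, 3 or 4 (0.108, 0.122, 0.104 and 0.0901). The second probe set (1455287_at) had 9.28, 9.45 and 10.74 in TG, against 8.51, 8.29, 8.54 and 8.66 in WT, and did not pass (1.32 ± 0.35 SE, adjusted p = 0.0619). It passed without TG replicate 1 (adjusted p = 0.0484) and without TG replicate 3 (0.0177). The remaining probe set (1460291_at) was above background on TG replicates 2 and 3 alone, at 4.10 and 6.58, against 3.74 on TG replicate 1 and 2.28 to 3.05 in WT, and was not tested.

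The promoters of the 2 kinase genes are shown because they hold the E-box CACGTG, which the protein of Myc binds. Myc itself was higher in TG (0.90 ± 0.15 SE, limma adjusted p = 0.0221), and whether it acts on these genes here was not tested. RefSeq promoters were found for 7 of the 9 genes, and Ccnd1 and Ccnd2 had no entry. The 250 bases before the annotated start were searched on both strands, and capitals mark the E-boxes. Cdk4 holds 4 copies, which begin 172, 118, 98 and 11 bases before the start, and Cdk6 holds 1, which begins 220 bases before it. The E-box is a palindrome, so each copy reads the same on both strands, and no copies overlap.
Cdk4, GRCm38.p6, chr10:127063285-127063534, plus strand: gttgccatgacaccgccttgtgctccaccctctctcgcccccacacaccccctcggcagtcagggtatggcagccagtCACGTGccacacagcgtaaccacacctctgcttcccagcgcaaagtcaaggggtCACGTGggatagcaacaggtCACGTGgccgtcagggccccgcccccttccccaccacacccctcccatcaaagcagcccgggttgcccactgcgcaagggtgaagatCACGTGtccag
Cdk6, GRCm38.p6, chr5:3343643-3343892, plus strand: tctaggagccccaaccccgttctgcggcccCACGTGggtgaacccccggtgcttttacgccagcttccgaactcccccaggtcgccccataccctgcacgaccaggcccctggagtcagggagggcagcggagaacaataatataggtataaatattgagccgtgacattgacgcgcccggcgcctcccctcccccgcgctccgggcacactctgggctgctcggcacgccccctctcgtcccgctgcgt

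Of all 32851 promoter entries of this length 6.02% hold at least 1 E-box and 0.0213%, or 7 entries, hold at least 4. Among the 10 entries of the 7 genes only those of Cdk4 and Cdk6 hold it, and those of Ccnd3 and Cdkn2c, which were also higher, do not. The E2F words TTTCCCGC, TTTCGCGC, TTTGCCGC and TTTGGCGC (1.86% of entries) and the BCL6 word TTCCTAGAA (0.347%) were in none of the 10, and the forkhead word GTAAACA (3.17%) was in 1 of the 2 entries of Ccnd3. A match is a description of these letters in this window.

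Cdkn1b, which encodes p27, fell in TG. Its brightest probe set (1434045_at) was at 11.18, 11.13 and 11.13 on TG replicates 1 to 3, against 11.58, 11.47, 11.73 and 11.53 on WT replicates 1 to 4. The groups did not overlap, and the TG mean was 11.15 ± 0.03, against 11.58 ± 0.11 in WT (SD, n = 3 and 4). The fall was -0.43 ± 0.07 (SE), to 74.2% of the WT level (limma adjusted p = 0.0211), and TG replicate 3 lay with the other TG arrays. Against WT replicates 1 and 2 alone it was -0.38 (adjusted p = 0.116). The call was lost without TG replicate 2 (adjusted p = 0.0878) or WT replicate 1, 2 or 4 (0.0529, 0.0530 and 0.0514), with changes from -0.46 to -0.38. The dim second probe set (1419497_at) had 7.09, 5.63 and 6.19 in TG, against 6.47, 6.54, 7.30 and 6.32 in WT, overlapped and did not pass (-0.35 ± 0.38 SE, adjusted p = 0.559).

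The promoter of Cdkn1b is shown as that of the member that was lower in TG. It holds no E-box in the same 250 bases, and neither do those of Ccnd3 and Cdkn2c, which were higher. Capitals mark CCAAT, the word of the factor NF-Y, and GGGCGG, the word of SP1, which are 2 elements of the p27 promoter described in human cells. CCAAT begins 161 and 35 bases before the start and GGGCGG 61 bases before it. At least 1 CCAAT stands in 33.8% and at least 1 GGGCGG in 32.7% of all entries, on either strand, so both are common. Among the other members GGGCGG is also in entries of Cdk4, where it is not marked above, Cdkn2c, Ccnd3, Cdkn2d and Cdkn1a. CCAAT is also in entries of Ccnd3 and Cdkn2d.
Cdkn1b, GRCm38.p6, chr6:134920151-134920400, plus strand: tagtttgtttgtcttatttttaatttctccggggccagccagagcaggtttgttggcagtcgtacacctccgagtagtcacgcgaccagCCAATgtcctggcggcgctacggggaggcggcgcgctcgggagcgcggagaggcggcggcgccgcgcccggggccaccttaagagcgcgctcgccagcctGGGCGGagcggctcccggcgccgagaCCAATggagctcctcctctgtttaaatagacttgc

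Cdkn2c, which encodes the INK4 inhibitor p18 that plasma cells need to leave the cycle in mice, rose together with the kinases it inhibits. Its only probe set (1416868_at) was at 7.43, 7.58 and 8.53 on TG replicates 1 to 3, against 6.78, 6.49, 6.01 and 6.67 on WT replicates 1 to 4. The groups did not overlap, TG replicate 3 was the highest and WT replicate 3 the lowest. The rise was 1.36 ± 0.31 (SE), or 2.56-fold (limma adjusted p = 0.0451), and 1.21 against WT replicates 1 and 2 alone (adjusted p = 0.208). The call held without TG replicate 1 alone (adjusted p = 0.0451) and was lost without TG replicate 2 or 3 (0.106 and 0.0564) or WT replicate 1, 2, 3 or 4 (0.0808, 0.113, 0.0972 and 0.0910).

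Cdkn2d, the gene of p19, did not pass. Its only probe set (1416253_at) was at 9.17, 9.26 and 9.27 on TG replicates 1 to 3, against 8.65, 9.15, 9.18 and 9.41 on WT replicates 1 to 4. The difference was 0.13 ± 0.17 (SE), with a 95% interval from -0.28 to 0.54 (limma adjusted p = 0.621), and WT replicate 1 lay below all other arrays; without it the difference was -0.02, and against WT replicates 1 and 2 alone 0.33 (adjusted p = 0.341). Cdkn1a, the gene of p21 and a target of p53, was under 4 on all 7 arrays with both of its probe sets and was not tested. Its brighter probe set (1424638_at) was at 2.55, 3.63 and 3.80 on TG replicates 1 to 3, against 2.49, 2.49, 2.55 and 2.55 on WT replicates 1 to 4, and the other (1421679_a_at) was at 2.19 to 2.30 throughout. No fold is given, as both groups were below background.

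**Figure D3:**
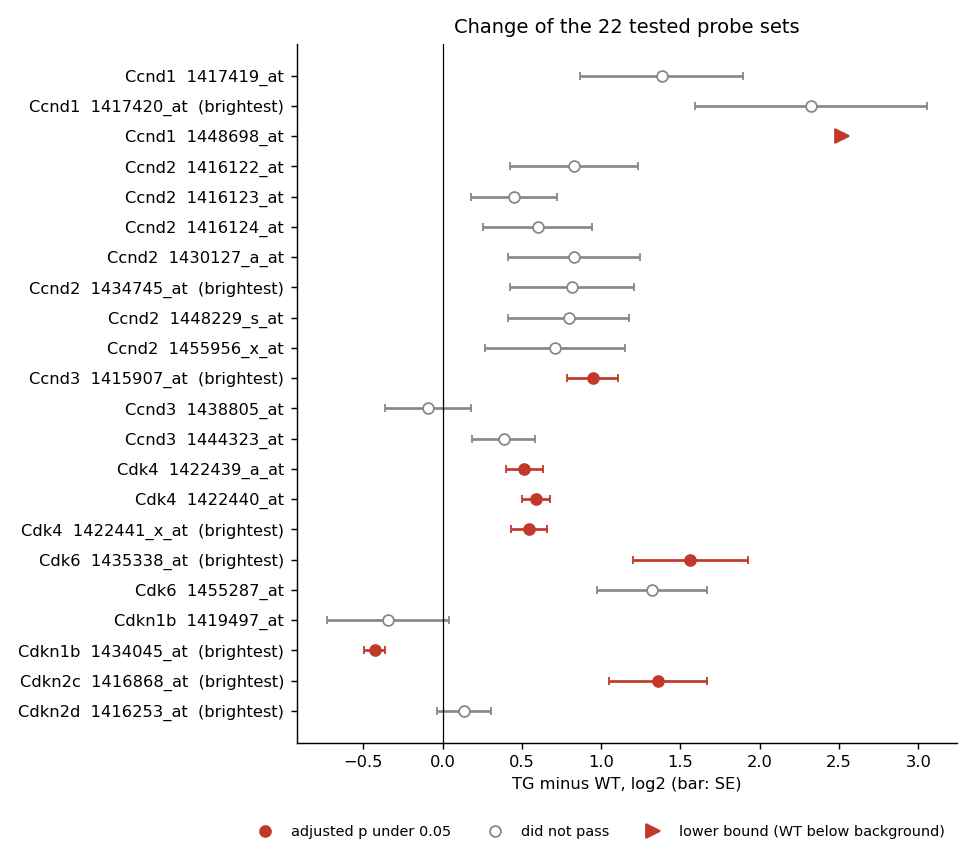
TG minus WT difference on the log2 scale (points) with its SE (bars) for the 22 tested probe sets; filled symbols passed an adjusted p under 0.05, and the triangle is a lower bound, for a probe set not above background in WT. The 3 probe sets of Cdk4 lie between 0.52 and 0.59, those of Ccnd1 at 1.38, 2.32 and at least 2.52, and the brightest of Cdkn1b at -0.43.

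The members differed in how far TG replicate 3 stood from the other TG arrays. By brightest probe set it exceeded the mean of TG replicates 1 and 2 by 2.75 for Ccnd1, 1.52 for Ccnd2, 1.41 for Cdk6 and 1.03 for Cdkn2c. For Ccnd3, Cdk4, Cdkn2d and Cdkn1b it differed from that mean by 0.35, 0.27, 0.05 and -0.02. The mean of TG replicates 1 and 2 minus the WT mean was 1.41 for Ccnd1, 0.31 for Ccnd2, 0.83 for Ccnd3, 0.45 for Cdk4, 1.09 for Cdk6, -0.42 for Cdkn1b, 1.01 for Cdkn2c and 0.11 for Cdkn2d.

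The list means of markers of other cells were higher on every TG array than on any WT array. In RNA of a whole isolate, fewer cells of a type and less RNA per cell cannot be told apart. The mean of the 3 tested T cell genes, of 10 listed, was 5.50, 6.06 and 9.43 on TG replicates 1 to 3, against 4.57 to 4.83 in WT, with Cd3g at 4.02, 4.55 and 9.86 in TG and at 2.17, the lowest value of the table, on all WT arrays. The mean of the 5 tested progenitor genes, of 9 listed, was 6.78, 7.44 and 8.75 in TG, against 4.17 to 4.46 in WT, with Cd34 at 2.17 on all WT arrays. Granulocyte genes (6 tested of 11 listed) had means of 10.77, 10.67 and 11.40, against 3.07 to 4.43, natural killer cell genes (5 of 9) 6.55, 6.84 and 8.24, against 3.32 to 3.45, and erythroid genes (5 of 11) 7.35, 9.0 and 9.17, against 5.54 to 5.62. For dendritic cell, monocyte and macrophage genes (6 of 12) the means were 7.39, 8.02 and 8.68, against 5.32 to 6.87, and for plasma cell genes (6 of 7) 10.79, 10.81 and 11.50, against at most 10.37. Of the 35 tested genes of these 7 lists 20 were called higher, beside 8.11% of all tested genes, and 1 of the 9 B cell genes lower. Of the 20, 12 were not above background on any WT array, entered the test through the TG arrays alone and so had to differ. Of the 3 tested T cell genes 0 passed, Cd3g among them (limma adjusted p = 0.112), and of the 6 plasma cell genes 1 did. In the plasma cell list Irf4 was lower (-0.38, limma adjusted p = 0.0719) and the other 5 differences were positive. In the erythroid list Car2 differed by -0.03 and the other 4 differences were positive. The list means cover tested genes only, so the filter favours a TG excess in them. Untested T cell genes exceeded 4 on TG replicate 3 alone, with Cd3d at 2.25, 2.19 and 10.70 on TG replicates 1 to 3. Of the untested progenitor genes only Meis1 exceeded 4, at 4.13 on TG replicate 1. The means of all 7 lists of other cells were highest on TG replicate 3, where that of the B cell list was lowest. Single genes differed. Of the granulocyte list S100a8 and S100a9 were highest on TG replicate 1, at 9.95 and 8.94. The untested Camp, Ltf and Ngp were too, at 6.67, 5.15 and 7.68, while Mpo, Prtn3, Elane and Ctsg were highest on TG replicate 3. By brightest probe set Ccnd1, Ccnd2, Ccnd3, Cdk4, Cdk6 and Cdkn2c were highest on TG replicate 3 as well, and Cdkn1b and Cdkn2d were not. The part of these cells in the differences of the members was not tested.

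**Figure D4:**
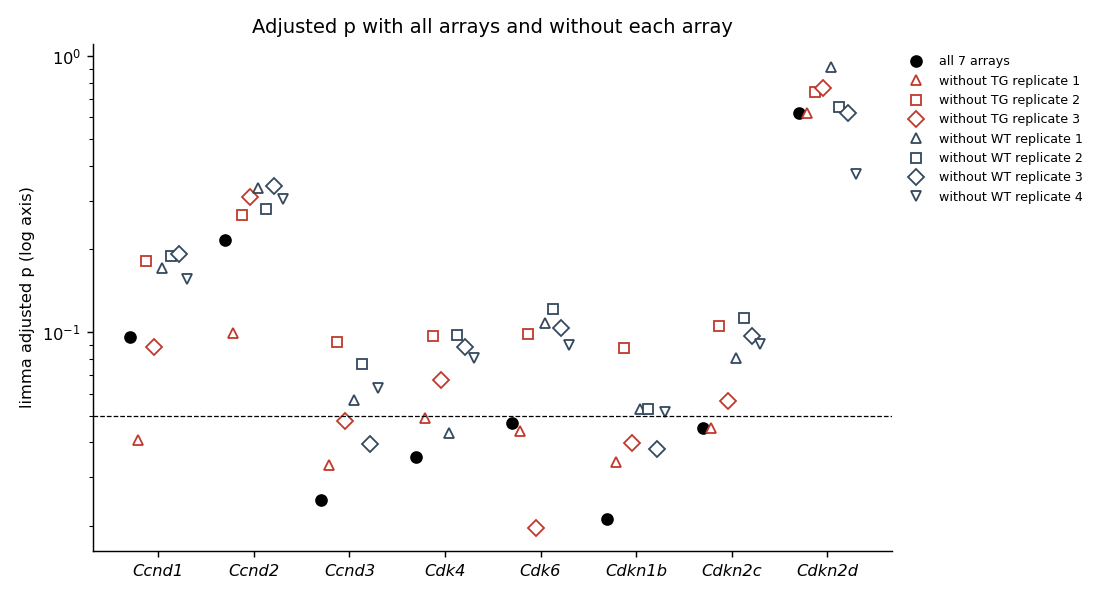
Limma adjusted p on a log axis for the brightest probe set of each gene with all 7 arrays (filled) and without each array in turn (open; red without a TG array, blue without a WT array); the dashed line is 0.05. The 5 genes that pass with all arrays each cross the line when TG replicate 2 or WT replicate 2 is left out.

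Some genes of later steps of the cycle rose as well. The list of E, A and B cyclins and their kinases also holds Ccnf, Cdk7, Ccnh and Mnat1. Of its 10 tested genes 4 were higher and 0 lower, beside 8.11% and 2.56% of all tested genes. The median of this list, 0.89, was 0.58 with values under 4 set at 4, where 3 passed, and 0.39 over the 8 genes above 6 on at least 3 arrays. Cdk1, the mitotic kinase, rose by 3.48 ± 0.59 (SE, limma adjusted p = 0.0241), its partners Ccnb2 and Ccna2 by 3.20 and 2.99 (adjusted p = 0.0233 and 0.0283), and Ccne2, encoding cyclin E2, was not above background on any WT array and at least 1.64-fold higher (adjusted p = 0.0142). Ccne2 entered the test through the TG arrays alone, and with values under 4 set at 4 its call was lost (0.72, adjusted p = 0.140). Of 5 tested CDC25 phosphatases, inhibitory kinases and Ccng2 none passed in limma; Wee1, which restrains CDK1, differed by 1.18 (adjusted p = 0.0588), Cdc25a, which activates CDK2, by 0.62 (0.0661), Cdc25b by -0.31 (0.406), Pkmyt1 by 0.14 (0.570) and Ccng2 by 0.04 (0.736), where the unadjusted p of none but the first 2 was under 0.05.

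**Figure D5:**
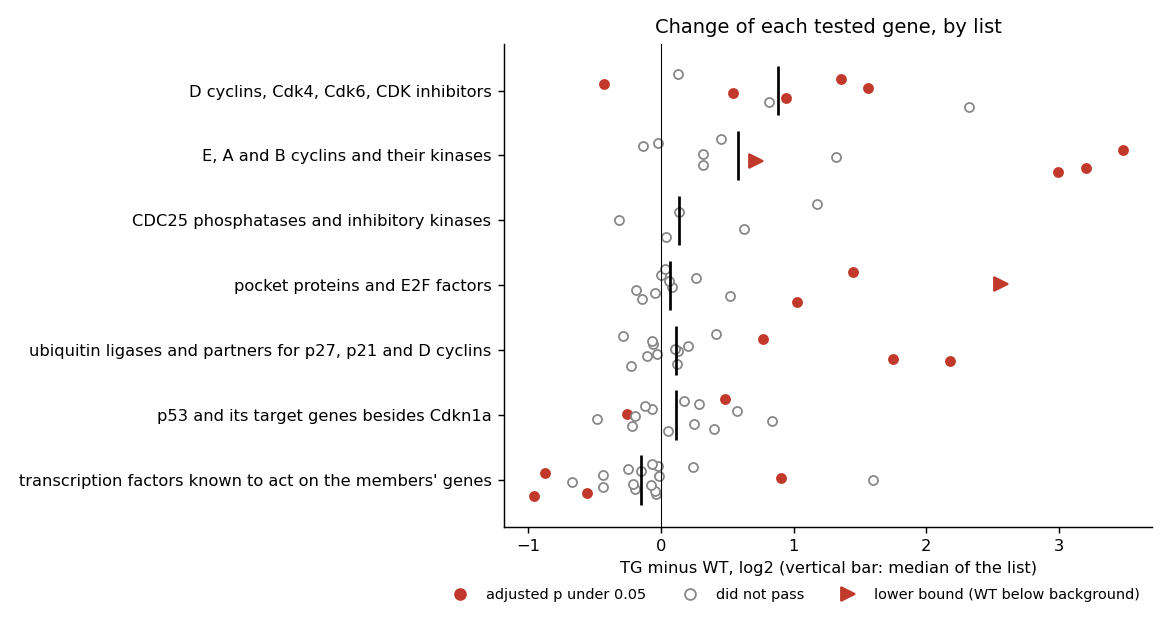
TG minus WT difference on the log2 scale of each tested gene (points, brightest probe set), by list, with the median of the plotted values (vertical bar); filled symbols passed an adjusted p under 0.05, and triangles are lower bounds, for Ccne2 and E2f8, which were not above background in WT. The median of the 8 members is 0.88, that of the E, A and B cyclin list 0.58, and those of the other lists lie between -0.15 and 0.14.

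Among 12 tested genes of pocket proteins, which the D cyclin kinases phosphorylate, and of E2F factors and their partners, 3 were higher and 0 lower, with a median of 0.07. No pocket protein gene passed. Of all tested genes 8.11% were higher and 2.56% lower. E2f1 rose by 1.03 ± 0.18 (SE, limma adjusted p = 0.0251) and its partner Tfdp1 by 1.45 (adjusted p = 0.0222), while E2f8, a repressor made late in the cycle, was not above background on any WT array and at least 5.91-fold higher (adjusted p = 0.0136). E2f8 too entered the test through the TG arrays alone, and with values under 4 set at 4 it passed (2.56, adjusted p = 0.0259). E2f3 did not pass (0.52, adjusted p = 0.112). Of 14 tested genes of ubiquitin ligases and partners for p27, p21 and D cyclins 3 were higher and 0 lower (median 0.12). Cks1b, the cofactor by which SKP2 marks p27 for destruction, rose by 2.18 ± 0.35 (SE, adjusted p = 0.0215), its relative Cks2 by 1.75 (0.0175) and the importin gene Kpna2 by 0.77 (0.0261), while Ambra1, which directs the breakdown of D cyclins, did not pass (-0.22, adjusted p = 0.0933).

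Of 14 tested genes of p53 and its targets besides Cdkn1a 1 was higher and 1 lower (median 0.11). Of all tested genes 8.11% were higher and 2.56% lower, so the higher count of this list is near the share of all genes. Zmat3 rose by 0.48 (limma adjusted p = 0.0442) and Mdm4, an inhibitor of p53, fell (-0.25, adjusted p = 0.0423), while Ccng1 and Mdm2 did not pass (0.25 and -0.19, adjusted p = 0.0594 and 0.0962). Of 19 tested transcription factors known to act on these genes 1 was higher and 3 lower (median -0.15), where the higher count too is near the share of all genes. Foxo1, whose protein activates Cdkn1b and represses D cyclins, was at 11.13, 10.99 and 10.73 in TG, against 11.46, 11.49, 11.42 and 11.65 in WT, a fall of -0.55 ± 0.11 (SE, adjusted p = 0.0298). The NF-kB subunit gene Rel fell (-0.87, adjusted p = 0.0312), as did Bcl6 (-0.96, adjusted p = 0.0205), whose protein is known to repress the genes of cyclin D2 and p27 in human B cells, and Myc was the factor that rose. Left-out arrays moved these counts: the higher genes numbered from 0 to 6 for the E, A and B cyclins, 0 to 3 for the pocket proteins and E2F factors and for the ubiquitin ligases, 0 to 1 for the p53 list and 0 to 2 for the transcription factors, with 0 to 3 lower in the last. Against WT replicates 1 and 2 alone no gene of these lists passed, where 15 of all tested probe sets did.

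For the members that spanned at least 1 on the log2 scale over the arrays, the genes with the nearest profile were sought, by the root mean square difference over the 7 arrays after each gene was centred on its mean. Nearest to Ccnd1, which spanned 4.68, were Nfix, Thbd and 2510009E07Rik (0.23, 0.26 and 0.27). Ro60, Lgalsl and Inf2 were nearest to Ccnd2 (0.11, 0.13 and 0.16), which spanned 1.99. Ccnd3 was nearest to Pcyt1a, Ssbp4 and Tusc1 (0.09, 0.12 and 0.13). For Cdk6, which spanned 2.71, the genes were Stx3, Sirpa and Avpi1 (0.13, 0.14 and 0.16), and for Cdkn2c, which spanned 2.52, Mpeg1, Abcb1b and Trip13 (0.12, 0.13 and 0.14).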

How the data were processed

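RNA of splenic B cells was measured on 3 TG and 4 WT Affymetrix arrays. The authors deposited log2 values between 2.17 and 16.36. The submitters' processing notes name GCRMA without a version, a method that corrects background by probe sequence, normalizes quantiles and summarises probe sets. It leaves many dim values at or near a common floor and compresses their differences. Of 45101 probe sets 34945 name 1 gene, 932 several and 9160 none, and 64 are controls; symbols were looked up by Entrez identifier in RefSeq for 34754, and 0 changed.

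The 20994 probe sets that exceeded 4 on 3 or more arrays of any group entered limma 3.58.1 (R 4.3.3), with lmFit, a trended eBayes and p-values adjusted by Benjamini-Hochberg across all of these. A gene is represented by its tested probe set of highest mean. The labels do not say whether replicates came from separate mice. A p-value here sets the group difference against the spread between these samples, and no batch is given. A test on simulated data was run first. The 9 members and the lists were chosen with earlier results of these data known. Named are all members with all probe sets, and every gene of a pathway list with at most 6 tested genes, otherwise the 4 of smallest p. Ccnf, Cdk7, Ccnh and Mnat1 are named only as parts of their list. From the marker lists, the genes named were chosen after their values were seen. The 3 nearest profiles of members spanning at least 1 are named as well. Alternatives changed the filter, floor, scaling, variance model, array weights, Xist as covariate, replicate number as a block and the arrays included. Promoters and the miRNA are from RefSeq tables of GRCm38.p6.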

Additional observations from a re-analysis of the deposited data

Results flagged for a closer look

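Values of the 4 WT arrays were examined for 50 probe sets of the members and of the named pathway genes, and in 4 of them 1 array stood apart, by its gap to the nearest array as a share of the group's range against Dixon's 95% critical value for 4 samples; chance alone flags about 1 group in 20. Ccnd2 on 1416123_at had WT replicate 1 at 4.28 below 4.94 on the other WT arrays (0.998), and on 1416124_at WT replicate 4 at 4.98 below 5.19 (1); both are probe sets with identical values on several arrays. Ccnd3 on 1444323_at had WT replicate 1 at 5.34 below 5.98 to 6.07 (0.873). Cdc25a had WT replicate 2 at 6.87 below 7.26 to 7.33 (0.846).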

How the results depend on the processing

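With all arrays 4 members were higher and 1 lower, and 1949 probe sets passed over the whole table. With no filter 0 and 0 members and 199 probe sets passed, with the replicate block, which leaves out WT replicate 4, 0, 0 and 4, with Xist as a covariate 1, 0 and 277, without WT replicates 3 and 4 0, 0 and 15, and without both TG replicate 3 and WT replicate 4 1, 0 and 687. With the level of 6, or with values under 4 set at 4, 4 members were again higher and 1 lower. Median centring, repeated quantile normalization and robust eBayes gave the same counts. Without the intensity trend 3 were higher and 1 lower. Array weights gave 5 higher, 1 lower and 5945 probe sets. Leaving out each array in turn gave 0 to 5 members higher, 0 to 1 lower and 138 to 2149 probe sets. The signs of the 5 called members held under all 19 alternatives. Among results that did not pass, the sign turned for Ccnd3 on 1438805_at (0.13 with Xist as a covariate, 0.12 without WT replicates 3 and 4, -0.28 to 0.10 without single arrays), Cdkn2d (-0.017 to 0.24 without single arrays), Pkmyt1 (-0.053 with array weights, -0.10 without TG replicate 3 and WT replicate 4, -0.054 to 0.24 without single arrays) and Ccng2 (-0.014 to 0.081 without single arrays). Ccnd1 on its brightest probe set passed with array weights (1.78, adjusted p = 0.0166). Fewer arrays and more probe sets tested are part of these settings; other causes were not tested. Same-numbered arrays of the groups did not deviate together (correlations of -0.04, -0.14 and -0.29), so the block result is not a paired one.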

Other observations

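Some cell cycle genes were too dim to test and were above background on TG arrays alone. Cdkn3, which encodes a phosphatase that acts on CDK1 and CDK2, was at 3.45, 4.56 and 5.0 on TG replicates 1 to 3, against 3.05 to 3.13 in WT. Cdc25c, the phosphatase that opens mitosis, reached 5.06 on TG replicate 3 with its probe set 1456077_x_at, against 2.18 and 2.28 on TG replicates 1 and 2 and 2.17 to 2.18 in WT. E2f7, a repressor related to E2f8, was at 4.09 on TG replicate 3, against 2.46 and 2.23 on TG replicates 1 and 2 and 2.17 on every WT array. The INK4 inhibitor genes Cdkn2a and Cdkn2b, and Cdkn1c, the gene of p57, were between 2.17 and 2.35 on all 7 arrays.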
